A study of Homo sapiens with 6 samples.

Results

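The genes described here are 10 genes of vascular growth factor signalling, measured in melanoma cells with and without knockdown of the transcription factor ETV1. They were taken by symbol from a list drawn up with earlier results of these data known, so the list is not independent of the data, and all 10 were found among the 17468 genes of the expression table. They are the vascular endothelial growth factor (VEGF) ligands VEGFA, VEGFB, VEGFC and PGF, the receptors FLT1 and KDR, the co-receptors NRP1 and NRP2, and TIE1 and ESM1, which are best known from endothelial cells. RNA sequencing covered A375 and Colo800, both established human melanoma lines grown with 10% serum, each infected with viruses for a scrambled hairpin, the hairpin ETV1-sh1 or the hairpin ETV1-sh2. RNA was taken 4 days after infection. The series' text speaks of duplicate infections, but the table holds 1 column for each line and hairpin, and the sources used here do not say if the duplicates were pooled. The 6 libraries are therefore A375 scrambled, A375 ETV1-sh1, A375 ETV1-sh2, Colo800 scrambled, Colo800 ETV1-sh1 and Colo800 ETV1-sh2, and no line and hairpin has a replicate. The labels conflict with the series' text on drugs: they give DMSO for ETV1-sh1, 5 nM trametinib (a MEK inhibitor) for ETV1-sh2 and 1 uM vemurafinib (a BRAF inhibitor, in the labels' spelling) for the scrambled hairpin. Their protocol speaks of siRNA, given 48 hours, followed by 8 hours of drug. The series' text names no drug. If those labels hold, every hairpin carries its own drug, and an effect of the hairpin and an effect of the drug cannot be told apart in any comparison between hairpins below.

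VEGF ligands are secreted dimers that bind receptor tyrosine kinases. VEGFA binds FLT1 and KDR, VEGFB and PGF bind FLT1 and not KDR, and VEGFC is the ligand of FLT4 on lymphatic vessels and can also act through KDR. KDR carries most of the growth signal in endothelial cells, whereas FLT1 binds VEGFA tightly, signals weakly and also exists as a soluble trap. The neuropilins NRP1 and NRP2 hold VEGF ligands beside these receptors and are shared with the secreted semaphorins, which are guidance cues of neurons and neural crest cells, the embryonic cells from which melanocytes arise. TIE1 is an endothelial receptor tyrosine kinase that works with the angiopoietin receptor TEK. ESM1, also called endocan, is a secreted proteoglycan that marks endothelial tip cells. In melanoma, VEGFA released by tumour cells acts on nearby vessels.

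Levels are FPKM, which correct fragment counts for transcript length and library size, so that genes can be compared within a library. For each line, values are given in the order scrambled, ETV1-sh1, ETV1-sh2. Differences are on the log2(FPKM + 1) scale, which understates the change of low genes. ETV1, the targeted gene, was lower in every hairpin library than in the scrambled library of its line. It measured 82.8, 34.6 and 3.46 FPKM in A375 and 180.3, 54.6 and 9.80 in Colo800. FPKM sums ran from 589256 to 710498 per library. Depth could only be estimated relative to the A375 scrambled library, from the commonest ratio of low values. That ratio was shared by 7.08% to 9.72% of the low genes compared. The estimate ran from 0.769 for Colo800 ETV1-sh2 to 2.10 for A375 ETV1-sh2. The share of FPKM in ribosomal protein genes was 15.8% to 18.9% for A375 but 6.33% to 8.94% for Colo800. Of the melanocyte markers, SOX10 stood at 353 to 712 FPKM in all 6 libraries, whereas the pigment enzymes TYR and DCT were at or below 0.0758 in A375 and at or above 14.8 in Colo800. Other pigment genes were low in both lines. TYRP1 was at 0.286 to 0.604 FPKM in A375 and 1.44 to 1.70 in Colo800, and MLANA did not exceed 1.85.

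Promoter sequence is shown for FLT1 and NRP2, the receptor and the co-receptor with the largest fitted decreases against scrambled among the 10 genes, a choice made after their values were seen. Each run covers bases 250 to 21 before the RefSeq start of the gene (build GRCh38.p14; the FPKM values were made on hg19), 5′ to 3′ on the strand of the gene. Capitals mark motifs found on either strand: AGGAAG, a site for ETS factors of the ETV1 type, TGACGTCA, the cyclic AMP response element, and GGGCGG, the GC box. CCGGAAG, another ETS site, and ACGTG, the core of the hypoxia response element, were also searched. The 2 GC boxes at the left of NRP2 share a base.
FLT1, minus strand, chr13:28495149-28495378: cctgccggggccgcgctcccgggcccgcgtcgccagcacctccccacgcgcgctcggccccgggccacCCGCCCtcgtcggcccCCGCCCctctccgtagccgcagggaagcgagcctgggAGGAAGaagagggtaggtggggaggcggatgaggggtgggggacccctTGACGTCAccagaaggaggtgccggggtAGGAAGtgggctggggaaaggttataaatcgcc
NRP2, plus strand, chr2:205682251-205682480: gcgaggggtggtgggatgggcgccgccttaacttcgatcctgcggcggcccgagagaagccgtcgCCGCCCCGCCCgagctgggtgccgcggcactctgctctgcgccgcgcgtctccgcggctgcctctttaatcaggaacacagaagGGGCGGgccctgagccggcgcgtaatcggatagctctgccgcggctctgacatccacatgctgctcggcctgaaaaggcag
In the 250 bases before its start FLT1 holds AGGAAG 2 times, from -129 and from -53 counted from the start, TGACGTCA once, from -81, and GGGCGG 3 times. NRP2 holds GGGCGG 3 times and none of the other motifs. Over the first listed start of 27305 genes, the same window holds AGGAAG in 28.7%, CCGGAAG in 8.82%, TGACGTCA in 1.77%, GGGCGG in 42.3% and ACGTG in 18.7%. The promoter table has 8 of the 10 genes, without VEGFA and NRP1. Among these 8, AGGAAG occurs in FLT1, TIE1 and 1 of 2 listed starts of PGF, CCGGAAG in none, and ACGTG in ESM1, from -18. All 250 bases of the ESM1 window lie in an annotated ESM1 exon, as do 20 and 187 bases of the PGF windows in PGF exons, and 65 bases of the VEGFB window lie in annotated exons. The ESM1 match is therefore within annotated transcript. For FLT1 and NRP2 only the bases printed above were checked, and none of them lies in an annotated exon. The FLT1 GGGCGG from -19 lies past those bases. A match is a description of letters, and a motif missing here can lie outside the window.

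NRP2 was the most abundant of the 10 genes in all 6 libraries, and it stood above 91.5% to 99.4% of all genes in the table. NRP1 stood above 90.2% to 97.7%. VEGFA stood above 84.6% of genes in A375 scrambled and above 97.6% in Colo800 scrambled. KDR, the main signalling receptor of endothelium, was far lower, above 27.9% to 50.8% of genes. The plot of levels by library shows this order.

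**Figure D1:**
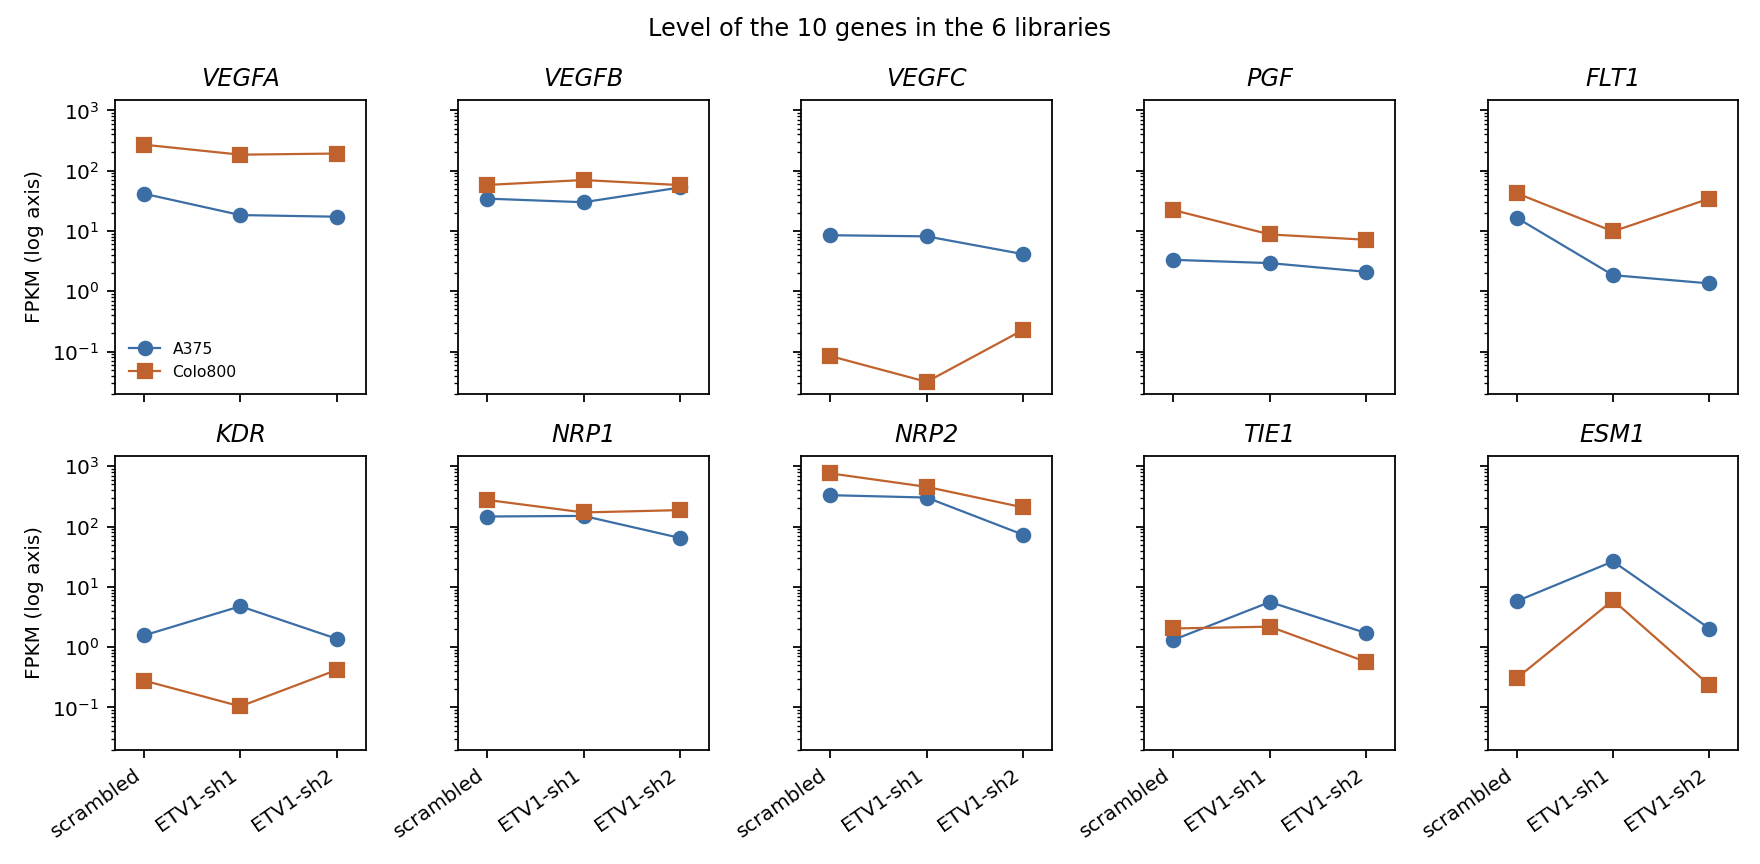
FPKM (log axis) of each gene in the scrambled, ETV1-sh1 and ETV1-sh2 library of A375 (blue circles) and Colo800 (orange squares). Each point is 1 library and lines join libraries of 1 cell line. NRP2 is highest throughout, ESM1 peaks with ETV1-sh1 in both lines, and VEGFC and KDR lie below 0.5 FPKM in all 3 Colo800 libraries.

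VEGFA, the central ligand of the family, was lower with either ETV1 hairpin in both lines. It measured 41.5, 18.4 and 17.2 FPKM in A375 and 269.6, 184.1 and 192.2 in Colo800. The hairpin libraries kept 44.2% and 41.5% of the scrambled level in A375 and 68.3% and 71.3% in Colo800. In each line the 2 hairpin libraries lay close together and below scrambled. ETV1 was left at 41.8% and 4.18% of scrambled in A375 and at 30.3% and 5.43% in Colo800. A relation of VEGFA to the depth of knockdown was not tested.

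The libraries were compared with limma, which fits every gene at once and borrows its estimate of the spread across genes. It was run on the 11129 genes with a mean of at least 1 FPKM, with the cell line as a term, with Benjamini-Hochberg adjustment over all of them and a threshold of 0.05. Each single hairpin was compared with scrambled over 2 libraries against 2, so the p-values rest on 1 library per line and hairpin. Both single-hairpin comparisons use the same 2 scrambled libraries. With ETV1-sh2, VEGFA fell by 0.85 (SE 0.216, limma adjusted p = 0.0448). With ETV1-sh1 its difference was -0.84 (SE 0.216, limma adjusted p = 0.112), which missed the threshold. Between the hairpins VEGFA differed by -0.012, with a 95% interval of -0.53 to 0.51. The ETV1-sh2 call held in 1 of the 6 fits that each left out 1 library: without Colo800 ETV1-sh2 the adjusted p was 0.0220, and without any of the others it ran from 0.0667 (Colo800 scrambled) over 0.0805 (A375 ETV1-sh1), 0.0812 (Colo800 ETV1-sh1) and 0.151 (A375 ETV1-sh2) to 0.317 (A375 scrambled). With all 17468 genes tested and no filter on low values, the limma adjusted p was 0.189, and 0 of all genes passed in that comparison. For ETV1-sh1, the VEGFA difference stayed at -0.84 with 1 ETV1-sh2 library left out, since these libraries do not enter it. It ran from -1.17 without Colo800 scrambled to -0.51 without A375 scrambled. VEGFA shares exon bases with an antisense gene in GENCODE release 29, and the sources used here do not say if reads were counted by strand. In bulk RNA, fewer cells with a transcript and less of it per cell cannot be told apart, here and below.

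PGF, placental growth factor, was lower with both hairpins in Colo800 and closer to scrambled in A375. It measured 3.32, 2.93 and 2.10 FPKM in A375 and 22.2, 8.76 and 7.14 in Colo800. The 2 Colo800 hairpin libraries were at 39.4% and 32.2% of scrambled, and all 3 Colo800 libraries stood above all 3 A375 libraries. The fitted difference was -0.69 for ETV1-sh1 (SE 0.311, limma adjusted p = 0.296) and -0.996 for ETV1-sh2 (SE 0.311, limma adjusted p = 0.0755), neither past the threshold. The effect of the hairpins in Colo800 minus that in A375 was -1.07 (SE 0.570, limma adjusted p = 1.00).

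VEGFB and VEGFC had no shared direction across the 4 hairpin libraries. VEGFB, the ligand tied to fatty acid uptake in muscle and heart, was at 34.4, 29.9 and 52.6 FPKM in A375 and at 58.0, 69.9 and 57.6 in Colo800. It was above scrambled in A375 ETV1-sh2 and Colo800 ETV1-sh1 and at or below it in the other hairpin libraries. VEGFC, the lymphatic growth factor, was at 8.49, 8.13 and 4.13 FPKM in A375 and at 0.0843, 0.0315 and 0.229 in Colo800. The lowest A375 value lay above the highest Colo800 value. Fitted differences against scrambled ran from 0.037 to 0.30 for VEGFB and from -0.35 to -0.064 for VEGFC over the 2 hairpins, none past the threshold.

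The make-up of the ligand transcripts differed with the line and the hairpin. Summed over the 4 ligands, FPKM came to 87.6, 59.4 and 76.0 in A375 and to 349.9, 262.8 and 257.2 in Colo800. VEGFA made up 47.3%, 30.9% and 22.7% of this sum in A375, whereas it made up 77.1%, 70.0% and 74.7% in Colo800. VEGFB was thus the most abundant ligand transcript in both A375 hairpin libraries, at 50.4% and 69.2% of the sum, and VEGFA in the other 4 libraries. The plot of ligand transcripts by library shows the change of rank.

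**Figure D2:**
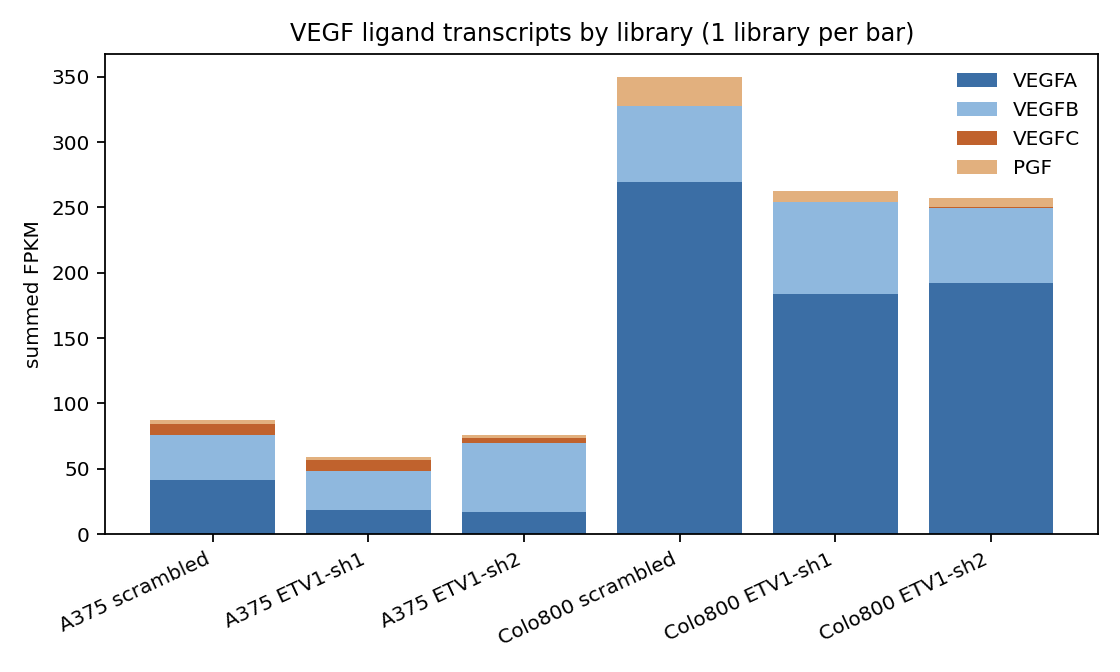
Summed FPKM of VEGFA, VEGFB, VEGFC and PGF in each of the 6 libraries, as stacked bars from 0, 1 library per bar. VEGFA is the largest block in A375 scrambled and in all Colo800 libraries, and VEGFB in both A375 hairpin libraries.

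FLT1, the decoy-like VEGF receptor, was lower in all 4 hairpin libraries, but to very different extents. In A375 it measured 16.6, 1.85 and 1.35 FPKM, which left 11.1% and 8.13% of the scrambled level. In Colo800 it measured 42.3, 9.83 and 34.5 FPKM, which left 23.3% and 81.5%. In total 3 of the 4 hairpin libraries were therefore far below scrambled and Colo800 ETV1-sh2 was close to it. The fitted difference was -2.31 for ETV1-sh1 (SE 0.571, limma adjusted p = 0.104) and -1.60 for ETV1-sh2 (SE 0.571, limma adjusted p = 0.103), neither past the threshold. With 1 ETV1-sh2 library left out, the ETV1-sh1 difference of FLT1 stayed at -2.31, since these libraries do not enter it. Left out in turn, the other libraries moved it between -3.12 (without Colo800 scrambled) and -1.50 (without A375 scrambled). The ETV1-sh2 difference was -2.75 without Colo800 ETV1-sh2 and -0.44 without A375 ETV1-sh2. In each of these fits 1 library stands alone for its hairpin and is assumed to vary like the others.

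KDR, through which VEGFA drives endothelial growth, was low everywhere. It was at 1.56, 4.77 and 1.37 FPKM in A375 and at 0.279, 0.104 and 0.419 in Colo800. A375 ETV1-sh1 stood highest, at 305% of A375 scrambled, and no other library exceeded 1.6 FPKM. No hairpin comparison of KDR passed the threshold, the fitted differences from scrambled being 0.48 and 0.020. The ratio of FLT1 to KDR transcripts was 10.6, 0.388 and 0.981 in A375, and KDR was the higher of the 2 receptors in both A375 hairpin libraries. In Colo800 the ratio was 151, 94.3 and 82.2.

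NRP2 fell with ETV1-sh2 in both lines. It measured 331.1, 302.4 and 73.1 FPKM in A375 and 761.4, 454.8 and 207.7 in Colo800. ETV1-sh2 left 22.1% and 27.3% of the scrambled level and ETV1-sh1 left 91.3% and 59.7%. In each line the ETV1-sh2 library was the lowest by a wide margin. NRP2 fell by 2.02 with ETV1-sh2 against scrambled (SE 0.235, limma adjusted p = 0.00926), whereas with ETV1-sh1 the difference was -0.44 (SE 0.235, limma adjusted p = 0.375). Tested directly, NRP2 was lower with ETV1-sh2 than with ETV1-sh1, by -1.58 (SE 0.235, limma adjusted p = 0.0130). The call against scrambled was lost without A375 scrambled (adjusted p = 0.0536) and held without any of the other 5 libraries. The call between the hairpins was lost without A375 ETV1-sh1 (0.0996) or Colo800 ETV1-sh1 (0.0771). With no filter on low values neither call held (0.111 and 0.135), and 0 of all genes passed in either comparison.

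NRP1, the neuropilin that pairs with KDR, measured 146.7, 150.0 and 64.7 FPKM in A375 and 276.2, 171.3 and 187.2 in Colo800. Every hairpin library but A375 ETV1-sh1 was below the scrambled library of its line. The fitted difference was -0.33 for ETV1-sh1 and -0.86 for ETV1-sh2 (SE 0.303, limma adjusted p = 0.0978), neither past the threshold. With 1 library left out, the ETV1-sh2 difference ran from -1.35 without Colo800 ETV1-sh2 to -0.38 without A375 ETV1-sh2. In both of these fits a lone library stands for ETV1-sh2. NRP2 exceeded NRP1 in every library, and the ratio of the 2 was 2.26 and 2.02 in A375 scrambled and ETV1-sh1, 2.76 and 2.66 in the same Colo800 libraries, and 1.13 and 1.11 in the ETV1-sh2 libraries. Both neuropilins share exon bases with an antisense gene.

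ESM1 rose with ETV1-sh1, and the hairpins differed in it when compared directly. It measured 5.77, 26.4 and 2.03 FPKM in A375 and 0.304, 6.01 and 0.233 in Colo800. The ETV1-sh1 library was the highest in each line, 4.57 times scrambled in A375 and 19.8 times in Colo800, where the scrambled level was low. ESM1 rose by 2.22 with ETV1-sh1 (SE 0.298, limma adjusted p = 0.0295). With ETV1-sh2 its difference from scrambled was -0.62 (SE 0.298, limma adjusted p = 0.189). That value ran from -1.06 without Colo800 ETV1-sh2 to -0.18 without A375 ETV1-sh2. The difference between ETV1-sh2 and ETV1-sh1 was -2.84 (SE 0.298, limma adjusted p = 0.00706). The ETV1-sh1 call held without either ETV1-sh2 library and was lost without A375 scrambled (adjusted p = 0.0898), A375 ETV1-sh1 (0.240), Colo800 scrambled (0.131) or Colo800 ETV1-sh1 (0.250). The call between the hairpins was lost without A375 ETV1-sh1 (0.0996) or Colo800 ETV1-sh1 (0.0815). With no filter on low values neither call held (0.260 and 0.110), and 0 of all genes passed in either comparison. ESM1 shares exon bases with another gene on its own strand, AC034238.1.

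TIE1, the partner of the angiopoietin receptor, was low and uneven. It was at 1.32, 5.60 and 1.71 FPKM in A375 and at 2.04, 2.19 and 0.568 in Colo800. A375 ETV1-sh1 was the highest library and Colo800 ETV1-sh2 the lowest. TIE1 differed from scrambled by 0.79 with ETV1-sh1 (SE 0.376, limma adjusted p = 0.321) and by -0.37 with ETV1-sh2, and between the hairpins by -1.15 (SE 0.376, limma adjusted p = 0.0903). None passed, and with 1 library left out the difference between the hairpins ran from -1.58 to -0.73.

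Counted over the 10 genes, 1 passed with ETV1-sh1, ESM1, and it was higher. Among all genes tested 0.773% were called higher and 1.51% lower in that comparison. With ETV1-sh2, NRP2 and VEGFA were called lower and none higher, 2 of 10 beside 9% called lower and 7.73% called higher among all genes. Between the hairpins, ESM1 and NRP2 were lower with ETV1-sh2, 2 of 10 beside 6.91% lower and 6.82% higher. With both hairpins pooled against scrambled, 0 of 10 genes passed in limma and 0% of all genes did, while VEGFA, PGF and FLT1 had an unadjusted p under 0.05, as did 10.8% of all genes. The median difference of the 10 genes was -0.20 for ETV1-sh1 and -0.74 for ETV1-sh2, beside medians of 0.0017 and 0.046 over all genes. The hairpin effect did not differ between the lines at the threshold for any of the 10 genes or any gene tested (0%, and 0.593% at an unadjusted p under 0.05, none of them among the 10). That comparison had 2 residual degrees of freedom, and the interval for FLT1, -1.01 to 4.25, shows how wide it was.

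**Figure D3:**
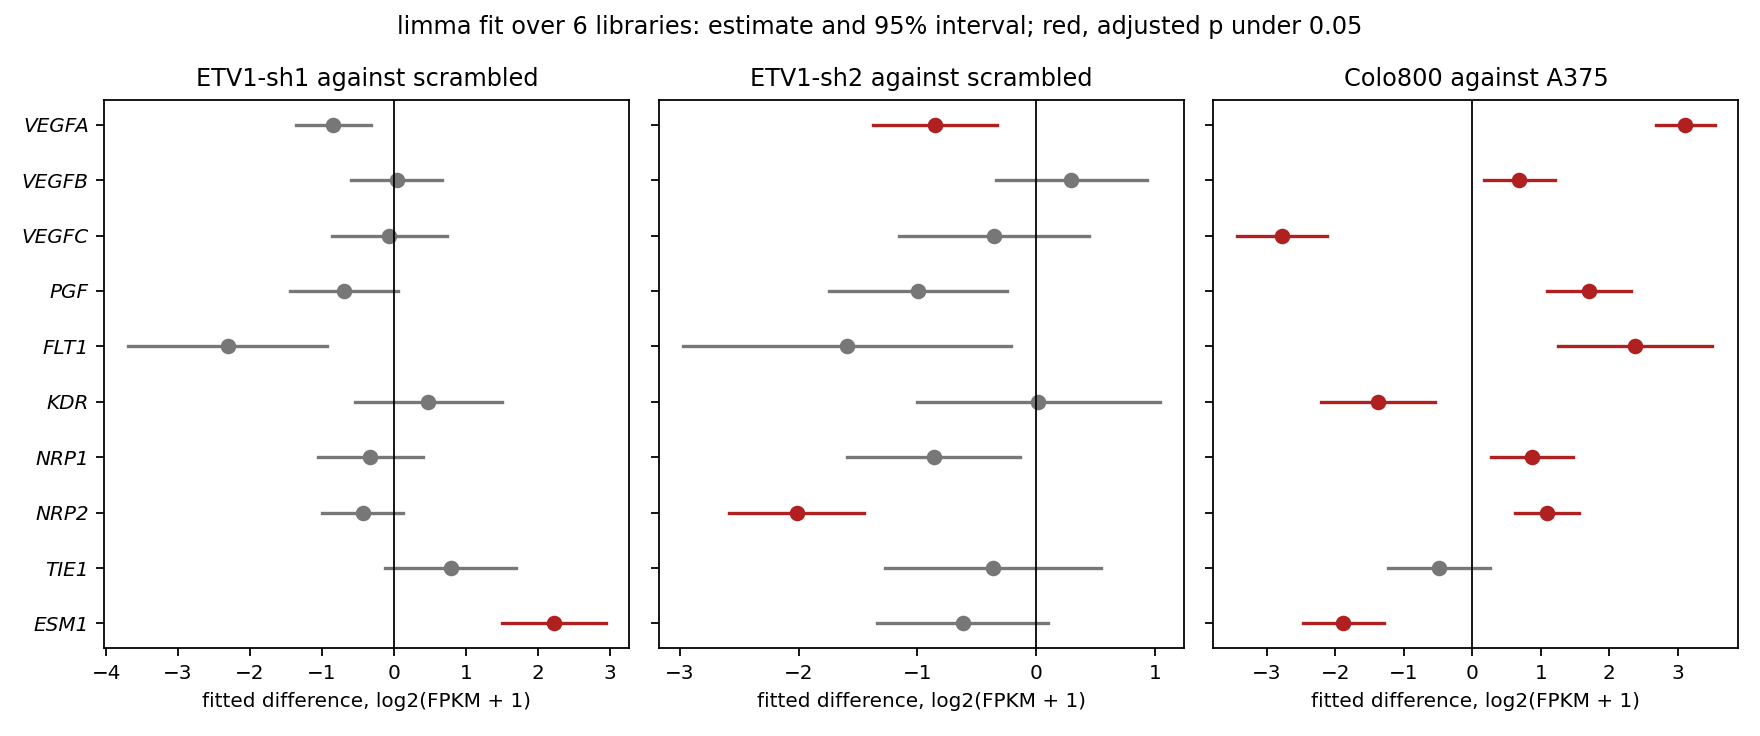
Fitted difference on the log2(FPKM + 1) scale with its 95% interval, from limma, for each gene with ETV1-sh1 against scrambled, ETV1-sh2 against scrambled and Colo800 against A375, with genes past the adjusted threshold in red. NRP2 lies at -2.02 with ETV1-sh2 and ESM1 at 2.22 with ETV1-sh1, and 9 of 10 genes are red between the lines.

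Within a line each hairpin can be set against scrambled only as 1 library against 1, so these differences have no test. Taking a difference of at least 1 on the log2(FPKM + 1) scale, which is 2-fold in FPKM + 1, 15 of the 40 differences reached it. Some low values changed more than 2-fold in FPKM without reaching it, such as TIE1 in Colo800 ETV1-sh2, at 27.9% of scrambled. In A375 ETV1-sh1, FLT1 and VEGFA were lower (3.89% of all genes were) and ESM1, KDR and TIE1 higher (2.77%). KDR reached the mean of 1 FPKM only through that library, so its place in this count is a description. In A375 ETV1-sh2, ESM1, FLT1, NRP1, NRP2 and VEGFA were lower (8.29%) and none higher (6.93%). In Colo800 ETV1-sh1, FLT1 and PGF were lower (3.96%) and ESM1 higher (2.54%), and in Colo800 ETV1-sh2, NRP2 and PGF were lower (6.38%) and none higher (5.18%). By this measure FLT1 and VEGFA were lower with both hairpins in A375, where 1.63% of all genes were, and PGF in Colo800, where 0.908% were, and none of the 10 was higher with both in either line, beside 0.952% in A375 and 0.899% in Colo800. FLT1, NRP2, PGF and VEGFA were below scrambled in all 4 hairpin libraries, 4 of 10 beside 16.8% of all genes, and none was above it in all 4, beside 19.7%. The plot of differences within a line shows these values.

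**Figure D4:**
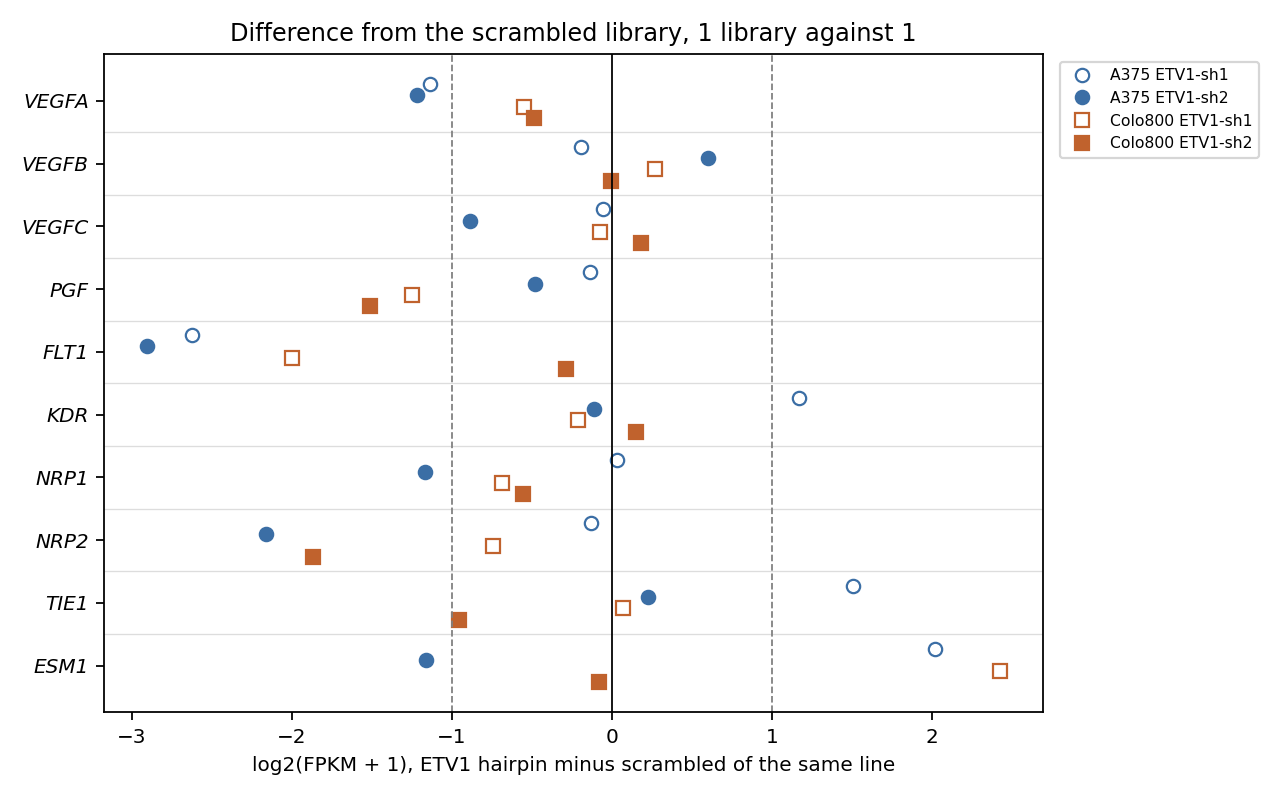
Difference on the log2(FPKM + 1) scale between each ETV1 hairpin library and the scrambled library of its line, 1 point per library, for the 10 genes. FLT1 lies between -2.90 and -0.29, and ESM1 lies near 2 in both ETV1-sh1 libraries and below 0 in both ETV1-sh2 libraries.

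More of these genes differed past the threshold between the lines than between hairpins. In the comparison of all 3 Colo800 with all 3 A375 libraries, with the hairpin as a term, 9 of 10 genes passed, 6 higher and 3 lower in Colo800, beside 31.8% called higher and 25.3% lower among all genes. VEGFA was higher in Colo800 by 3.11 (SE 0.176, limma adjusted p = 0.000116), FLT1 by 2.38 (SE 0.466, limma adjusted p = 0.00614) and PGF by 1.71 (SE 0.254, limma adjusted p = 0.00218). NRP2 was higher by 1.09 (adjusted p = 0.00406), NRP1 by 0.87 (0.0239) and VEGFB by 0.69 (0.0329). VEGFC was lower by -2.78 (SE 0.271, limma adjusted p = 0.000524), ESM1 by -1.88 (0.00133) and KDR by -1.38 (0.0155). TIE1 did not pass, at -0.48 (0.218). VEGFC and KDR reached the mean of 1 FPKM only through the A375 libraries, so their selection fixed the direction and their calls are descriptions. Among the 8 genes with a mean of at least 1 FPKM in each line, 6 were higher and 1 lower in Colo800, beside 31.8% and 22.1% of the 10086 such genes overall. The lower gene was ESM1, at 0.304, 6.01 and 0.233 FPKM in Colo800, so it reached that mean there only through ETV1-sh1.

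In FPKM, VEGFA was 6.50 times higher in Colo800 than in A375 with the scrambled hairpin, 10.0 times with ETV1-sh1 and 11.2 times with ETV1-sh2. FLT1 was 2.55, 5.31 and 25.6 times higher. VEGFC was 101, 258 and 18.1 times higher in A375, and ESM1 19.0, 4.396 and 8.72 times. The VEGFC ratios rest on Colo800 levels of at most 0.229 FPKM. All Colo800 libraries lay above all A375 libraries for NRP1, PGF, VEGFA and VEGFB (26.2% of all genes did so), and all A375 libraries above all Colo800 libraries for KDR and VEGFC (21.6%). The scrambled libraries alone, 1 against 1, had FLT1, NRP2, PGF and VEGFA at least 2-fold higher in FPKM + 1 in Colo800 (17.2% of all genes) and ESM1, KDR and VEGFC lower (13.4%). For KDR and VEGFC the filter fixed the direction, so both counts only describe them. The shares of all genes also include genes that passed the filter through 1 line only.

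Of these 8 genes, VEGFA, PGF, FLT1, NRP2 and ESM1 kept their line difference without any 1 of the 6 libraries. With no filter on low values VEGFA, PGF and ESM1 kept it, and FLT1 (adjusted p = 0.0917), NRP2 (0.0579), NRP1 (0.146) and VEGFB (0.151) lost it, as did KDR (0.109). KDR also lost it without A375 ETV1-sh1 (adjusted p = 0.0566), and NRP1 without A375 scrambled (0.0706) or Colo800 scrambled (0.0713). VEGFB lost it without A375 scrambled (0.104), Colo800 scrambled (0.105), A375 ETV1-sh1 (0.147) or Colo800 ETV1-sh1 (0.148), and TIE1 passed, at -0.92, without A375 scrambled (0.0368) or Colo800 scrambled (0.0383). Ribosomal protein genes took a larger share of FPKM in A375, as given above. With libraries rescaled without ribosomal protein and mitochondrial genes, which moved the median of all genes by -0.26 between the lines, VEGFB was at 0.41 (adjusted p = 0.127) and NRP1 at 0.59 (0.0974), neither past the threshold.

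Other genes of VEGF signalling were taken from lists drawn up with earlier results of these data known. The remaining ligands and receptors were scarce: FLT4, the receptor of VEGFC, did not exceed 0.158 FPKM, FIGF, the ligand also called VEGFD, 0.213, ANGPT2 0.0929 and TEK 0.955, whereas ANGPT1, an angiopoietin that activates TEK, stood at 5.20 to 10.2. Of the 19 tested genes of VEGF receptor signalling, 1 rose with ETV1-sh1 and none fell, and 3 fell with ETV1-sh2 and none rose. Among all genes 0.773% rose and 1.51% fell with ETV1-sh1, and 7.73% rose and 9% fell with ETV1-sh2. The first was SH2D2A, an adaptor that binds KDR, at 18.9, 64.6 and 26.99 FPKM in A375 and 2.85, 47.7 and 5.999 in Colo800 (2.69, limma adjusted p = 0.0431). Like ESM1, it was highest in the ETV1-sh1 library of each line. The 3 that fell were PIK3CA, a catalytic subunit of PI3 kinase (-1.32, adjusted p = 0.0167), PXN, the focal adhesion protein paxillin (-1.05, 0.0203), and the adaptor GRB2 (-0.57, 0.0480). The median of the 19 was 0.0031 for ETV1-sh1 and -0.072 for ETV1-sh2, beside 0.0017 and 0.046 over all genes. Between the hairpins PIK3CA (-1.52, limma adjusted p = 0.0116), PXN (-0.88, 0.0329) and SH2D2A (-2.01, 0.0347) were lower with ETV1-sh2, 3 of 19 beside 6.91% of all genes. Between the lines 8 of the 19 were higher and 3 lower in Colo800, beside 31.8% and 25.3%.

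Of the 11 tested semaphorins and plexins, the other partners of the neuropilins, none passed against scrambled with either hairpin, and their medians were 0.020 and -0.24. Between the hairpins PLXND1 was lower with ETV1-sh2 (-0.77, limma adjusted p = 0.0374), and SEMA3E (0.83, 0.0399) and SEMA3B (1.23, 0.0406) were higher. That is 1 lower and 2 higher of 11, beside 6.91% lower and 6.82% higher among all genes. Among 7 tested angiogenesis inhibitors, TIMP3, a metalloproteinase inhibitor that also blocks VEGFA binding to KDR, fell with both hairpins. It was at 424.2, 23.8 and 21.3 FPKM in A375 and 844.4, 183.0 and 219.4 in Colo800 (-3.15 with ETV1-sh1, limma adjusted p = 0.0431, and -3.10 with ETV1-sh2, 0.0178). All 4 hairpin libraries were far below scrambled. VASH1, an inhibitor that endothelium makes in response to VEGFA, rose with ETV1-sh2 (1.02, adjusted p = 0.0278), and the median of the 7 inhibitors was -0.37 with each hairpin. None of 7 tested genes of the HIF system, which drives VEGFA in hypoxia, and none of 4 tested tip cell genes passed in either hairpin comparison. Their medians with ETV1-sh1 and ETV1-sh2 were -0.0048 and 0.31 for the HIF system and -0.21 and 0.17 for the tip cell genes. Between the lines HIF1A (1.60, limma adjusted p = 0.000303), EPAS1 (2.005, 0.00861) and EGLN1 (0.68, 0.0186) were higher in Colo800, and VHL (-0.72, 0.00555) and HIF1AN (-0.53, 0.0126) lower. These 3 higher and 2 lower of 7 stand beside 31.8% higher and 25.3% lower among all genes. Of the inhibitors, 5 of 7 were higher in Colo800, beside 31.8% of all genes, with THBS2 (6.10) and ADAMTS1 (3.61) the furthest. SERPINF1 was lower (-3.42) but reached the filter only through A375. All 4 tested tip cell genes reached it through 1 line only, so their line differences are not read.

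The label endothelial-type was set against markers of endothelial cells, and many of them were at or near 0. Of 22 markers listed, 20 were found, and PECAM1 and ADGRL4 were not analysed here. By library, 8 to 12 of the 20 lay under 0.1 FPKM and 4 to 7 stood at 1 FPKM or more. CLEC14A and SOX17 were listed at 0 in all 6 libraries, CDH5, the cadherin of endothelial junctions, did not exceed 0.0225 FPKM, CD34 0.134, ERG 0.155 and VWF 0.338. The summed level of the 20 was 82.1 to 127.9 FPKM in A375 and 95.3 to 121.6 in Colo800. Most of it was ENG, a TGF-beta co-receptor also found outside endothelium, at 58.0 to 96.7 FPKM, followed by EGFL7 at 8.01 to 23.9 and ROBO4 at 0.307 to 12.8. SOX18 stood at 0.881 to 3.93 FPKM, MMRN2 at 0.547 to 3.27, NOTCH4 at 0.427 to 2.65 and ECSCR at 0.133 to 2.43. Of the 7 markers tested, none passed with ETV1-sh1, and with ETV1-sh2 NOTCH4 rose (0.92, limma adjusted p = 0.0482), while the medians of the 7 were -0.0086 and -0.20. That is 1 of 7 beside 7.73% of all genes called higher with ETV1-sh2. Between the lines 4 of the 7 reached the filter through 1 line only. Of the other 3, EGFL7 was higher in Colo800 (1.04, limma adjusted p = 0.00286), beside 31.8% of genes at 1 FPKM or more in each line.

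**Figure D5:**
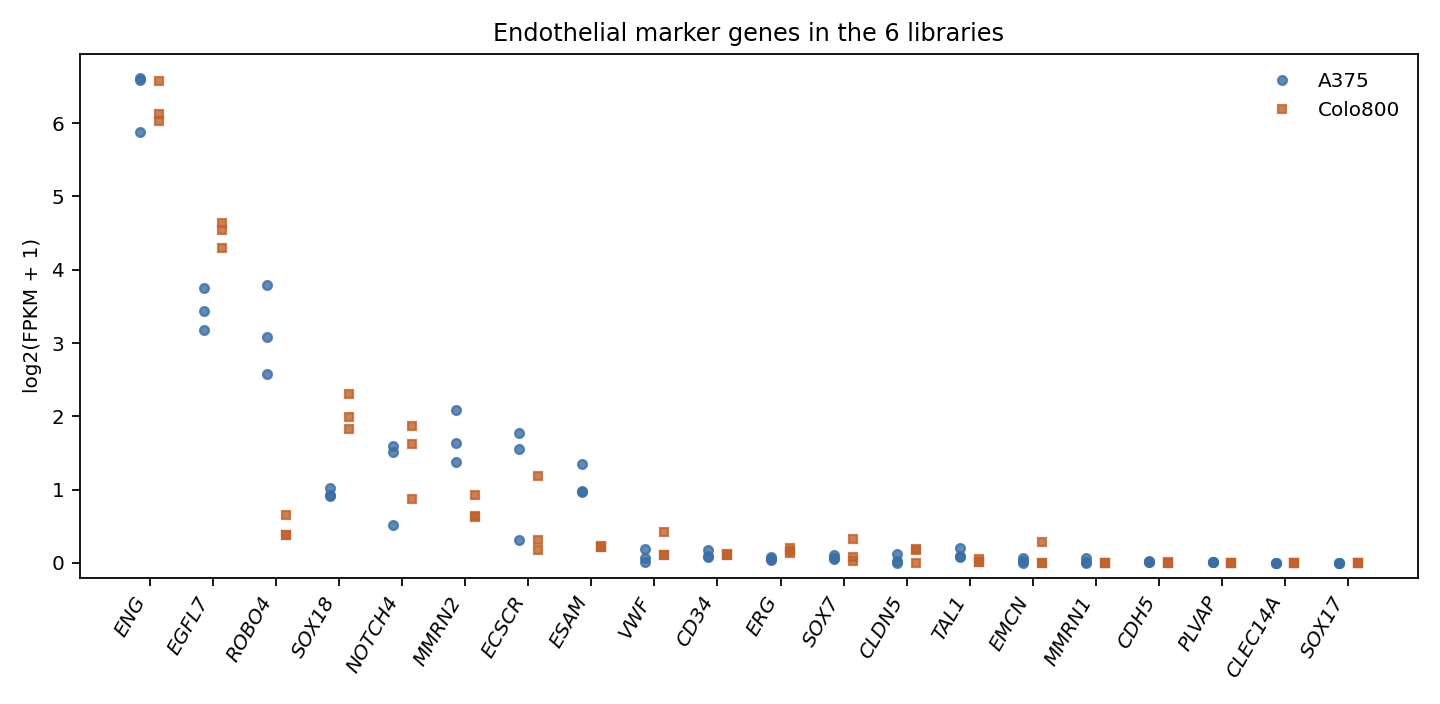
log2(FPKM + 1) of endothelial marker genes in the 6 libraries, 1 point per library, with A375 and Colo800 in different colours. Genes are ordered by mean FPKM: ENG lies highest, EGFL7 and ROBO4 follow, and CDH5, CLEC14A and SOX17 lie at or near 0.

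Markers of other cell types moved with some of these results. Of the 6 tested pericyte and fibroblast markers, COL1A1 (1.88, limma adjusted p = 0.00906), PDGFRB (1.25, 0.0213) and LUM (0.92, 0.0294) rose with ETV1-sh2, the hairpin with which NRP2 and VEGFA fell, 3 of 6 beside 7.73% of all genes. RGS5 and TAGLN were lower than scrambled with that hairpin in both lines, neither past the threshold. Between the hairpins COL1A1 (1.49, limma adjusted p = 0.0120) and LUM (0.93, 0.0319) were higher with ETV1-sh2, 2 of 6 beside 6.82% of all genes. The summed level of the 8 found was 108 to 302 FPKM in A375 and 19.0 to 42.9 in Colo800, highest with ETV1-sh2 in each line, and in A375 it was mostly ACTA2, at 103.6, 84.5 and 260.9 FPKM.

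Of the 6 leukocyte markers, PTPRC, the pan-leukocyte marker, did not exceed 0.121 FPKM and CD14 did not exceed 0.238. CD68, a lysosomal protein also made outside leukocytes, was at 87.5, 79.2 and 305.6 FPKM in A375 and 103.9, 138.8 and 76.6 in Colo800, and LYZ was at 12.2 to 21.0 in A375. The sum over the list, mostly CD68, was 100.7, 100.3 and 328 FPKM in A375 and 104.4, 139.6 and 78.1 in Colo800. In A375 it was highest with ETV1-sh2, the library with the lowest NRP1 and NRP2 of that line. In Colo800 it was lowest with ETV1-sh2, the library with the lowest NRP2 of that line. Neither of the 2 tested, CD68 and LYZ, passed with a hairpin.

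Of the 7 tested melanocyte markers, S100B fell with ETV1-sh1 (-1.70, limma adjusted p = 0.0197) and with ETV1-sh2 (-1.06, 0.0194), and the medians of the 7 were -0.40 and -0.41. That is 1 of 7 with each hairpin, beside 1.51% and 9% of all genes called lower. S100B was at 118.1, 39.4 and 51.5 FPKM in A375 and 305.3, 83.9 and 159.6 in Colo800. Between the lines TYR, DCT and TYRP1 reached the filter only through Colo800, which fixed their direction. The other 4, MITF, SOX10, PAX3 and S100B, were higher in Colo800, 4 of 4 beside 31.8% of genes at 1 FPKM or more in each line, as were VEGFA, FLT1 and PGF. The part of these markers in the results was not tested.

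For VEGFA and ESM1, the genes with the most similar pattern were sought among 7502 genes that varied by at least 1 on the log2(FPKM + 1) scale. The measure was Pearson's r over the 6 libraries, which share 2 lines and 3 hairpins, and it is given as a description. VEGFA was followed most closely by PCYT1A (0.998), CITED1 (0.996), SEPT9 (0.995), C20orf24 (0.995) and TNS3 (0.995). CITED1, a transcriptional coactivator of melanocytes, was at 11.7, 2.22 and 2.93 FPKM in A375 and 89.4, 62.7 and 66.7 in Colo800. ESM1 was followed by TEAD2 (0.991), ABR (0.990), PDLIM7 (0.989), SCG5 (0.988) and DRD2 (0.988). SCG5, a secretory chaperone, was at 23.0, 74.5 and 12.1 FPKM in A375 and 6.70, 20.5 and 7.94 in Colo800, highest with ETV1-sh1 in each line.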

How the data were processed

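The 6 RNA-seq libraries were analysed from 1 table of FPKM, which the authors made with STAR 2.4, Cufflinks 2.2.1 and Cuffnorm on hg19, per the submitters' processing notes. The sources used here do not give the annotation, scaling method or strandedness, and FPKM carries no absolute depth. Genes with a mean of at least 1 FPKM (11129 of 17468) were tested on log2(FPKM + 1) with limma 3.58.1 in R 4.3.3 (lmFit, eBayes with a variance trend). The 3-hairpin comparisons had 2 residual degrees of freedom and the pooled one 3. Nothing ties the columns to separate cultures, and a p-value then reflects only how these libraries vary, which may be technical. The 10 genes and the other lists were chosen with earlier results of these data known. By the naming rule, other genes could be named from up to 3 per list, comparison and direction past the threshold (some are given only as counts, and a few marker genes were added after their values were seen), the 3 most abundant endothelial markers, and the 5 nearest patterns to VEGFA and ESM1. Alternatives covered the pseudocount, filter, scaling, variance trend, line term and each library left out. Promoters and exon overlaps came from RefSeq and GENCODE release 29 on GRCh38, by symbol or identifier.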

Additional observations from a re-analysis of the deposited data

How the results depend on the processing

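No paired analysis was possible because the labels give no replicate numbers and each line and hairpin has 1 column; the cell line was the block, and without it 0 of the 10 genes passed for the pooled hairpins. The counts of the 10 genes called (1 with ETV1-sh1, 2 with ETV1-sh2, 2 between the hairpins, 9 between the lines) became 0, 0, 0 and 4 with no filter on low values, which tested all 17468 genes. With ETV1-sh2 the count was 1 when ribosomal protein and mitochondrial genes were left out of the scaling (VEGFA -0.73, adjusted p = 0.0662) and 1 without the variance trend (VEGFA adjusted p = 0.0606), NRP2 each time. Between the lines 7 passed under that scaling and 7 under upper quartile scaling, where VEGFB was at 0.51 (adjusted p = 0.0740) and NRP1 at 0.69 (0.0558). The scaling without those genes moved the median of all genes by 0.11 with ETV1-sh2 and turned the split of all calls from 1002 lower and 860 higher to 748 and 1278. Between the hairpins it turned 769 lower and 759 higher to 648 and 892. Between the lines 2811 lower and 3542 higher became 4054 and 2463 under it, and 3598 and 2801 under upper quartile scaling, which moved the median by -0.17. All genes called with ETV1-sh1, 168 lower and 86 higher, became 87 and 32 without the trend and 0 and 0 with no filter. The calls over all genes with ETV1-sh2 and between the hairpins also became 0 and 0 with no filter. Between the hairpins VEGFC turned to 0.18 with a pseudocount of 0.1, and VEGFA to 0.045 with the scaling without ribosomal protein and mitochondrial genes. The within-line count of 15 was 17 with a pseudocount of 0.1 and 16 with 0.5. Leaving out 1 library at a time gave 0 to 3 genes with ETV1-sh1, 0 to 5 with ETV1-sh2, 0 to 3 between the hairpins, 7 to 9 between the lines and 0 to 0 for the pooled hairpins and for the difference between lines, which could not be fitted without a scrambled library. Values that changed sign ranged as follows. Pooled hairpins: VEGFB -0.0087 to 0.33, VEGFC -0.47 to 0.054, KDR -0.065 to 0.53 and TIE1 -0.44 to 0.87. ETV1-sh1: VEGFB -0.34 to 0.42, VEGFC -0.34 to 0.21, KDR -0.28 to 1.23 and NRP1 -0.84 to 0.19. ETV1-sh2: VEGFB -0.12 to 0.71, VEGFC -0.89 to 0.18, KDR -0.46 to 0.50 and TIE1 -1.02 to 0.29. Between the hairpins: VEGFA -0.23 to 0.21, VEGFB -0.16 to 0.68, VEGFC -0.83 to 0.25, FLT1 -0.44 to 1.87 and KDR -1.22 to 0.30. Difference between lines: VEGFB -0.47 to 0.32, KDR -1.20 to 0.079, NRP1 -0.66 to 0.55, NRP2 -1.18 to 0.86 and ESM1 -0.84 to 2.33. The cause of these changes was not tested. Fits of the 3 hairpins then had 1 residual degree of freedom, with a lone library assumed to vary like the rest. Absolute depth is unknown, so no floor is given for low values.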
